A study of Mus musculus with 2 samples.

Results

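The genes described here encode calmodulin, 4 subunits of a calmodulin-dependent protein kinase, a related kinase and a pair of small proteins that hold calmodulin: Camk2a, Camk2b, Camk2d, Camk2g, Camk4, Calm2, Calm3, Nrgn and Pcp4. They were chosen by symbol, and all 9 were found among the 43346 genes of the deposited tables. Levels come from the gene tables, and the splicing of the 4 Camk2 genes comes from the transcript tables and from the splice junctions inside those genes. The RNA came from embryos of mouse strain C57BL/6J at embryonic day 18, littermates of mixed sex whose central nervous system was used, with no genetic change or treatment named in the labels. There was 1 group of 2 libraries, labelled biological replicates 1 and 2, made from stranded poly-A+ RNA over a minimum size after removal of ribosomal RNA. The labels name a separate biosample for each library but the same donor entry, so the spread between them may be partly technical. Sexes were pooled, the number of embryos was not stated, and the whole tissue holds many cell types, so fewer cells of a type and less RNA per cell cannot be told apart in any value below.

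Calmodulin is a small protein that changes shape when it binds calcium and then docks on its targets. One such target, CaM kinase II, is a holoenzyme of many subunits encoded by Camk2a (alpha), Camk2b (beta), Camk2d (delta) and Camk2g (gamma). Each subunit has a kinase domain, a segment that calmodulin binds, a linker of variable length and an association domain that joins the subunits. The linker is where most alternative splicing of these genes takes place. In the forebrain the kinase is known for its part in synaptic plasticity, and the alpha subunit is known to become abundant after birth. Camk4 encodes a mostly nuclear kinase that phosphorylates the transcription factor CREB. Neurogranin (Nrgn) and Pcp4 are small proteins with an IQ motif, through which they bind calmodulin.

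Replicate 1 held 97513548 fragments and replicate 2 held 142741622, of which 3.62% and 4.01% were on entries that are not genes. The 9 genes together took 270847 and 399690 fragments. Neuron markers were present as labelled: all 8 were detected, with summed levels of 6143 and 5731 TPM, the deposited level per transcript length and library total. Replicate 2 stood apart by skeletal muscle RNA. The summed level of 10 muscle genes was 14.98 TPM in replicate 1 and 649 TPM in replicate 2, and all 9 that could be measured were past 2-fold higher there. None of the 10 was at 0 in either library, and Acta1, the actin of skeletal muscle, was at 10.22 and 167.43 TPM. Levels and ratios are therefore given for each library, and the values of replicate 1 are those without that library.

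Calm2 and Calm3 had the highest levels of the 9 genes. Calm2 (ENSMUSG00000036438, GRCm38 chr17:87433412-87446935, minus strand) was at 1364.02 TPM in replicate 1 and 1399.12 in replicate 2, a mean of 1382 ± 24.8 TPM (SD, n = 2). Calm3 (ENSMUSG00000019370, chr7:16915379-16924114, minus strand) was at 757.47 and 762.29 TPM, a mean of 760 ± 3.41. The libraries of the 2 genes did not overlap, and Calm2 was 1.82 times Calm3. Among the 14816 genes detected at 1 TPM or more in both libraries, Calm2 ranked 66 and Calm3 141, and the median detected gene was at 17.7 TPM.

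Calm2 and Calm3 are known to encode one and the same protein from different DNA, which the first 90 coding bases show (GENCODE M21, GRCm38, joined over exons between chr17:87435879-87446795 and chr7:16917673-16923843). Capitals mark bases that differ between the genes.
Calm2: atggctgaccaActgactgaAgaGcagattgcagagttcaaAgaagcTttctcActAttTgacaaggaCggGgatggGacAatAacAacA
Calm3: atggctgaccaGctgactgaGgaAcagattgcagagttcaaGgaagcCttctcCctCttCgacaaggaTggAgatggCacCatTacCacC
In this stretch 15 bases differ. Over the whole coding sequence of 447 bases, 78 bases differed, 74 of them at the third position of a codon. The differences fell in 76 of 149 codons and changed 0 of the encoded residues. The levels above are thus levels of separate messages for 1 protein.

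Pcp4 and Nrgn came next below Calm2 and Calm3, together with Camk2b. Pcp4 (ENSMUSG00000090223, chr16:96467606-96525793, plus strand) was at 215.16 and 220.54 TPM, a mean of 218 ± 3.804. Nrgn (ENSMUSG00000053310, chr9:37544492-37552904, minus strand) was at 119.99 TPM in replicate 1 and 84.54 in replicate 2, a mean of 102 ± 25.1. Pcp4 was above Nrgn in both libraries, by a log2 ratio of 1.11 ± 0.38 on the log2(TPM + 1) scale (SD, n = 2). These places depend on the length correction, since the Pcp4 transcript is only 641 nt long. Without the correction, in CPM (counts scaled to the library total only), Pcp4 was the lowest of the 9 genes, at 0.755 times Nrgn and 0.884 times Camk4. Nrgn was then at 0.662 times Camk2d, 0.589 times Camk2g and 0.901 times Camk2a.

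The stretch that codes for the IQ motif, by which each of the 2 proteins binds calmodulin, lies at chr9:37546061-37546093 in Nrgn and chr16:96525464-96525496 in Pcp4 (GENCODE M21, GRCm38). Capitals mark identical bases.
Nrgn: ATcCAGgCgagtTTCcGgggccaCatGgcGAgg
Pcp4: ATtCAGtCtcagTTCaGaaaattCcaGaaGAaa
The motif begins at coding base 97 of 234 in Nrgn and at base 136 of 186 in Pcp4. Of its 33 bases, 14 were identical.

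Among the kinase genes Camk2b had the highest level and Camk4 the lowest. Camk2b (ENSMUSG00000057897, chr11:5969644-6066362, minus strand) was at 226.52 and 191.79 TPM, a mean of 209 ± 24.6 (SD, n = 2). Camk2d (ENSMUSG00000053819, chr3:126596302-126846326, plus strand) was at 78.77 and 77.81 TPM, a mean of 78.3 ± 0.679. Camk2g (ENSMUSG00000021820, chr14:20734875-20794088, minus strand) was at 64.18 and 62.19 TPM, a mean of 63.2 ± 1.41. The beta subunit gene therefore stood well above the other subunits in both libraries. Camk2a (ENSMUSG00000024617, chr18:60925618-60988152, plus strand) was at 35.66 and 26.82 TPM, a mean of 31.2 ± 6.25. Camk4 (ENSMUSG00000038128, chr18:32934931-33191228, plus strand) was at 8.42 and 9.50 TPM, a mean of 8.96 ± 0.764. In both libraries Camk4 was under the median detected gene, and the other 8 genes were above it.

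The order of the 9 genes by mean TPM was Calm2, Calm3, Pcp4, Camk2b, Nrgn, Camk2d, Camk2g, Camk2a and Camk4. Of its 36 pairs of genes, 34 had the same order in the mm9 RPKM values and 25 in CPM. Only 1 pair of neighbours overlapped: the libraries of Camk2b fell on both sides of those of Pcp4. Camk2b was above Camk2d by a log2 ratio of 1.40 ± 0.16, and Camk2g was above Camk2a by 1.01 ± 0.25 (log2(TPM + 1), SD, n = 2). Camk2d was above Camk2g by only 0.31 ± 0.02, and this step depends on how length enters. In CPM Camk2d was at 0.890 times Camk2g, and in the authors' mm9 RPKM values at 0.920 times. The Camk2d estimate also includes a 640 nt transcript model, Camk2d-220, that took 21.2% of the gene's TPM and 3.82% of its estimated fragments. The order of Calm2 and Calm3 turned as well in CPM, to 0.867, and held in the mm9 values, at 114 and 98.6 RPKM.

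As shares of the summed TPM of the 4 Camk2 genes, Camk2b gave 54.7% ± 1.72, Camk2d 20.6% ± 1.59, Camk2g 16.6% ± 1.06 and Camk2a 8.14% ± 0.936 (SD, n = 2). The alpha subunit, the major subunit of adult forebrain, was thus the least abundant of the 4 messages. Calm2 and Calm3 together were at 5.24 times the 4 Camk2 genes in replicate 1 and 6.03 times in replicate 2. These are ratios of messages, not of proteins.

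**Figure D1:**
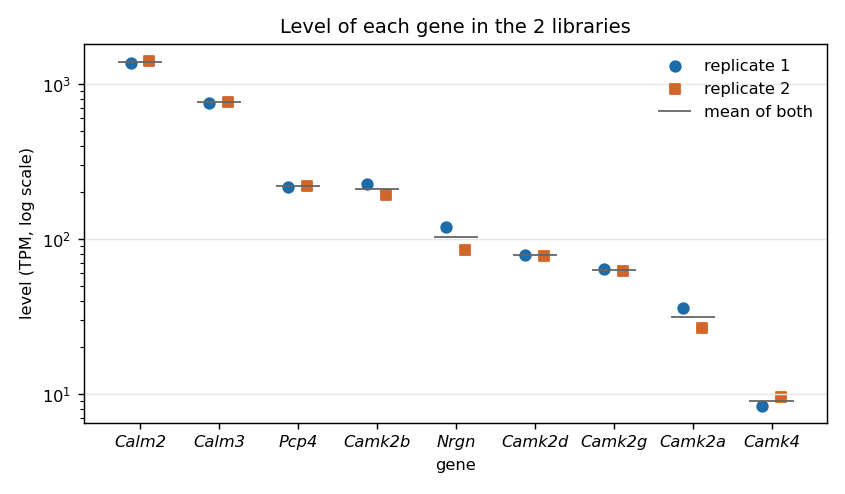
Level of each gene in TPM on a log axis, with 1 point per library and a tick at the mean. The points of replicates 1 and 2 lie close together for most genes, farthest apart for Nrgn (119.99 and 84.54 TPM) and Camk2a (35.66 and 26.82 TPM), and overlap between neighbours only for Pcp4 and Camk2b.

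Between the libraries, none of the 9 genes was past 2-fold (0 of 9, against 3.58% of the 18677 genes measured) or past 1.5-fold (0 of 9, against 9.04%). With 1 library on each side these ratios have no replicate check and no test. On log2 CPM scaled by TMM (a factor from the bulk of genes), replicate 2 was lower than replicate 1 for Nrgn by 29.6% (log2 ratio -0.51), for Camk2a by 24.8% (-0.41) and for Camk2b by 14.7% (-0.23). The ratio was near 0 for Camk2g (-0.04), Calm3 (0.02), Calm2 (0.05) and Pcp4 (0.05), and above 0 for Camk2d (0.15) and Camk4 (0.18). In all, 4 of 9 were lower in replicate 2, beside 49.5% of all genes measured. The median log2 ratio of the 9 was 0.02, beside 0.002 over all genes measured. Of all genes measured, 3.58% had a lower ratio than Nrgn and 4.94% a lower ratio than Camk2a. The Camk2d ratio is 0.15 in counts but -0.02 in TPM, since the length of the gene in the deposited tables, which follows the estimated mix of transcripts, also differed, at 2519 nt and 2791 nt.

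Markers of other cells moved between the libraries beside these genes. All 8 markers of cortical and hippocampal projection neurons were lower in replicate 2, with summed levels of 517 and 388 TPM and a median log2 ratio of -0.38. All 7 markers of striatal projection neurons were lower too, at 303 and 231 TPM and a median of -0.52. Purkinje and cerebellar markers were higher in 5 of 5 measured, at 184 and 255 TPM, and astrocyte and radial glia markers in 5 of 5, at 1670 and 1859 TPM. The ratios ran from -0.75 to -0.08 in the cortical and hippocampal list and from -0.71 to -0.07 in the striatal list. Those of Nrgn, Camk2a and Camk2b lay inside both of these wide ranges. Ratios of the 8 general neuron markers, 5 of them lower, ran from -0.33 (Rbfox3) to 0.08 (Elavl4), a range that also holds Camk2b. The part of these markers, and of the muscle RNA, in the ratios of the 9 genes was not tested.

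**Figure D2:**
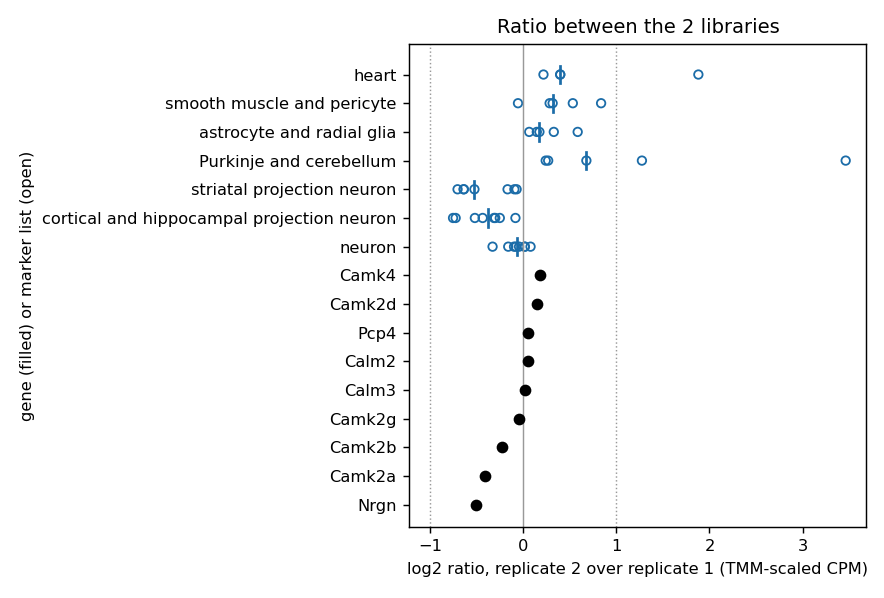
Log2 ratio of replicate 2 over replicate 1 on TMM-scaled CPM, for the 9 genes (filled) and the measured genes of 7 marker lists (open, with a bar at the median); dotted lines mark 2-fold. Nrgn (-0.51), Camk2a (-0.41) and Camk2b (-0.23) lie within the range of the cortical and striatal lists. Camk2b also lies within the range of the neuron list. The skeletal muscle list, with a median of 5.97, is left out because it lies beyond the axis.

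The linker of the Camk2 genes was read from splice junctions, counted by the authors on mm9 for 2 replicates that the files number but do not tie to either library. They are called junction replicates 1 and 2 here and held 48204482 and 69266527 junction reads. The linker was taken as the exons between a 43-nt exon, which ends the calmodulin-binding segment, and a 76-nt exon, which begins the association domain; both lengths were found in all 4 genes. Inclusion of an exon is the mean of the reads joining its 2 sides, as a percentage of that mean plus the reads that skip it. Intervals are exact (Clopper-Pearson, 95%) and cover counting error only, since the reads carry no molecular identifiers. In the 4 genes, 20 annotated linker exons had enough reads and were skipped by some read in both replicates. Of these, 9 were included in over 95%, 4 in under 5%, and 7 lay between. Exons without such skipping reads, such as the 41-nt and 49-nt exons of Camk2a, are not counted. Those over 95% include both acceptor forms of 1 exon in Camk2b (41 and 38 nt) and of 1 in Camk2d (38 and 35 nt). The forms of an exon share their downstream reads, and reads that join the other form do not count as skipping. Each value is thus not the share of that form, and the split between the forms is given further on. A further 2 exons of Camk2g that Ensembl 65 does not hold lay between as well.

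All 9 of these variable linker exons had a length that is a multiple of 3, so that including or skipping them keeps the reading frame. Of all 46081 annotated cassette exons with enough reads, 10829 had 5% to 95% inclusion, and 44.1% of those had such a length. Exons at the same place in the linker of different Camk2 genes resemble each other, and they are shown because the genes used some of them to a like degree and others to very different degrees. All are written 5′ to 3′, and capitals mark bases identical to those of the other exons of a set (GENCODE M21, GRCm38); a set is the exons at one place in the linker.
Camk2b 75 nt, chr11:5987057-5987131, minus strand: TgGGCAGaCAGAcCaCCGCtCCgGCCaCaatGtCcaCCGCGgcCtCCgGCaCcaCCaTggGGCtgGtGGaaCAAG
Camk2g 63 nt, chr14:20757666-20757728, minus strand: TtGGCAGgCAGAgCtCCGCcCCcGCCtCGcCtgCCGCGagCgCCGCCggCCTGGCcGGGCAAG
Camk2d 33 nt, chr3:126802937-126802969, plus strand: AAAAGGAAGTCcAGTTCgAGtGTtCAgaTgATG
Camk2g 33 nt, chr14:20747819-20747851, minus strand: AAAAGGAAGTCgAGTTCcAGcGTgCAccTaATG
Camk2b 72 nt, chr11:5982501-5982572, minus strand: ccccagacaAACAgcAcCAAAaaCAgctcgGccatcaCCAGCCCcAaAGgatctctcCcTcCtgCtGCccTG
Camk2d 60 nt, chr3:126805857-126805916, plus strand: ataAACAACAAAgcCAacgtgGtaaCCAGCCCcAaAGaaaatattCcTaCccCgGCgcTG
Camk2g 69 nt, chr14:20745792-20745860, minus strand: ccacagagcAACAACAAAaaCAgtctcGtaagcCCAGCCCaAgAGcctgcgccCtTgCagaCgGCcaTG
Camk2b 45 nt, chr11:5981070-5981114, minus strand: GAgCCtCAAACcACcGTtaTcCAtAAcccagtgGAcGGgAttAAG
Camk2d 42 nt, chr3:126808208-126808249, plus strand: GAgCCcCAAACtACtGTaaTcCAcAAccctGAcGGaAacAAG
Camk2g 45 nt, chr14:20744604-20744648, minus strand: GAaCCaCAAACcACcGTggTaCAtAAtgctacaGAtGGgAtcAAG
The Camk2b 75-nt and Camk2g 63-nt exons shared 47 bases, 74.6% of the shorter. The 33-nt exons of Camk2d and Camk2g shared 26 of 33 bases, or 78.8%, and the Camk2b 45-nt and Camk2d 42-nt exons shared 34, or 81.0% of the shorter.

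The 33-nt exon is known in these genes for encoding a nuclear localization signal, and its use differed between them. In Camk2g it was included in 72.3% (95% interval 68.8 to 75.7) and 73.6% (70.8 to 76.5) of messages, read from 403 and 574 upstream, 548 and 825 downstream and 182 and 251 skipping reads. In Camk2d the related exon was included in 0.161% (0 to 1.18) and 0.599% (0.124 to 1.74), from 0 to 3 reads a side against 311 and 498 that skipped it. The 33-nt exon of Camk2a was included in 22.2% (18.0 to 26.9) and 19.6% (16.2 to 23.4). The intervals of the 3 genes did not overlap in either replicate. The Camk2d exon was thus at a few reads, while most Camk2g messages carried theirs.

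The exon right after the 43-nt exon was variable in Camk2b and Camk2g. Camk2b included its 75-nt exon in 32.6% (30.4 to 34.7) and 30.3% (28.5 to 32.2) of messages. The sides of this exon gave 36.0% and 35.2% upstream and 28.8% and 24.6% downstream. Its inclusion is therefore less certain than these intervals show. Camk2g included the 63-nt exon in 29.6% (25.6 to 33.7) and 31.1% (27.8 to 34.7), although the annotation used for the junctions lacks it. The related 72-nt, 60-nt and 69-nt exons that follow were used very unequally. The Camk2b 72-nt exon was in 99.9% and 99.8% of messages, the Camk2d 60-nt exon in 44.96% (39.3 to 50.6) and 49.9% (45.5 to 54.5), and the Camk2g 69-nt exon in 8.80% (6.85 to 11.1) and 7.83% (6.35 to 9.63). Their order was the same in both replicates, with no overlap of the intervals.

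The next related exon had another order. The Camk2g 45-nt exon was in 99.6% and 99.8% of messages, and the Camk2d 42-nt exon in 80.7% (76.4 to 84.9) and 89.6% (87.0 to 92.2). The Camk2b 45-nt exon was in 59.3% (57.0 to 61.5) and 58.4% (56.4 to 60.3). Counted only from the nearest junctions with at least 10 reads, it was at 94.1%; that count leaves out the 726 and 973 reads that join the 72-nt exon to the 49-nt exon, since a little-used donor site inside the intron lies nearer. Toward the end of the linker Camk2b has a 114-nt and a pair of 129-nt exons that muscle forms of the subunit are known to carry. They were included in 0.208% to 1.29%, from 1 to 39 reads a side. The last of them had 14 and 9 reads upstream and 11 and 39 downstream, in replicates where muscle genes took 0.00161% and 0.0943% of junction reads; the part of muscle RNA in these reads was not tested.

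**Figure D3:**
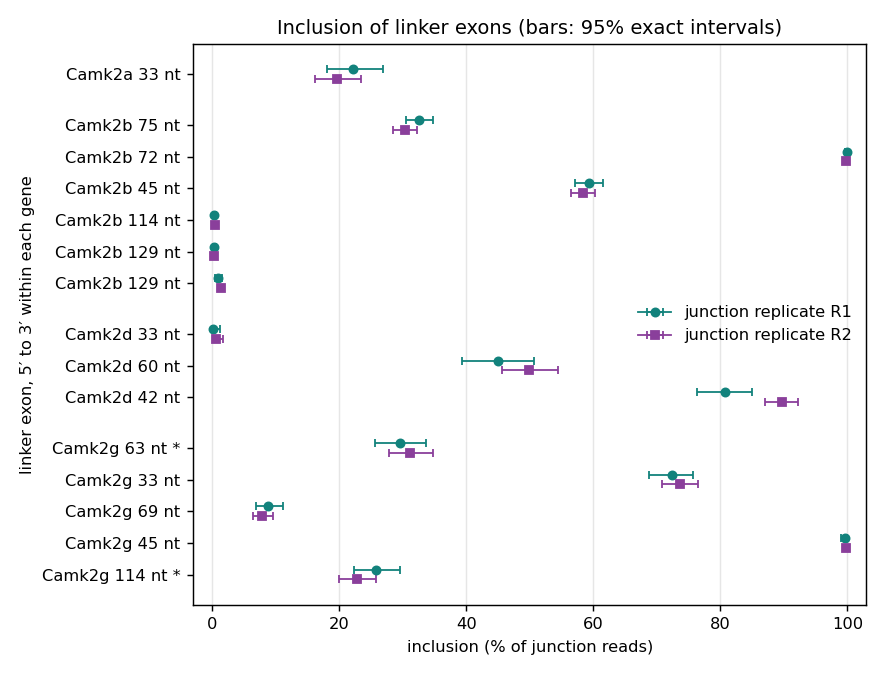
Inclusion (%) of the linker exons in each junction replicate, with exact 95% intervals for counting error; exons are listed by gene and length, and a star marks the 2 exons that Ensembl 65 lacks. Exons included in nearly all messages are left out, except the Camk2b 72-nt and Camk2g 45-nt exons, which are shown beside their relatives. The 33-nt exon lies near 0 in Camk2d, near 20% in Camk2a and above 70% in Camk2g.

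Camk2g also ended its linker with an exon outside Ensembl 65, of 114 nt, included in 25.8% (22.3 to 29.6) and 22.8% (19.96 to 25.8) of messages. Its sequence is shown because the deposited Camk2g transcripts do not hold it (GENCODE M21, chr14:20741378-20741491, minus strand).
Camk2g 114 nt: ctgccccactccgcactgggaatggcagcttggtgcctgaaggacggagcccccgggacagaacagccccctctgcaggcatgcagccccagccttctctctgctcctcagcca
Its upstream side had 193 and 233 reads and its downstream side 103 and 145. The sides gave 31.2% and 26.7% upstream, and 19.5% and 18.4% downstream, so the inclusion is less certain than the interval of the mean shows.

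Inclusion was compared between the junction replicates with Fisher's exact test, two-sided, over all 46081 annotated cassette exons with enough reads. Of these, 73 were called at a Benjamini-Hochberg adjusted p under 0.05 and a difference of 10 percentage points, a share of 0.158%. Of the 76 cassette exons of the 9 genes, 0 were called, and 2 had an unadjusted p under 0.05. One was the Camk2d 42-nt exon, which was 8.98 points higher in junction replicate 2 (unadjusted p = 0.000218, adjusted p = 0.0647, Fisher's exact test). With its upstream side alone the difference was 10.1 points with an adjusted p of 0.0329, which passes both limits, and with its downstream side alone it was 8.05 points with an adjusted p of 0.0746. The other was a 144-nt exon of Calm2 at 99.7% and 99.96% (adjusted p = 0.0102, Fisher's exact test), a difference far under 10 points. The test compares these replicates and not conditions, and the Camk2d exon differed together with the muscle reads named above, whose part in it was not tested.

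The acceptor that Camk2b used differed with the exon spliced before it. Between the 43-nt and the 72-nt exon of Camk2b lies an exon with a pair of acceptor sites 3 bases apart, giving 41 or 38 nt. The sequence shows the optional bases in capitals, beside the Camk2d exon at the same place, which has the same choice (GENCODE M21, GRCm38).
Camk2b 41 nt, chr11:5982721-5982761, minus strand: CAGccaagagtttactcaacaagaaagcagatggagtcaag
Camk2d 38 nt, chr3:126801724-126801761, plus strand: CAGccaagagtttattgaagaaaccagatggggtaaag
Joined directly to the 43-nt exon, 50 of 1263 and 54 of 1605 Camk2b reads used the inner acceptor, a share of 3.96% (2.95 to 5.19) and 3.36% (2.54 to 4.37). When the 75-nt exon came before, 397 of 513 and 404 of 525 reads used it, a share of 77.4% (73.5 to 80.9) and 77.0% (73.1 to 80.5). The shares did not overlap, and each was nearly the same in both replicates. Of the Camk2b junctions compared, only that from the 75-nt exon to the outer acceptor is outside Ensembl 65. The 75-nt exon also had 713 and 876 upstream reads but 513 and 526 downstream. The part of either in these shares was not tested. Of Camk2d reads from the 43-nt exon, 3.02% (1.31 to 5.86) and 4.46% (2.71 to 6.88) used the inner acceptor.

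**Figure D4:**
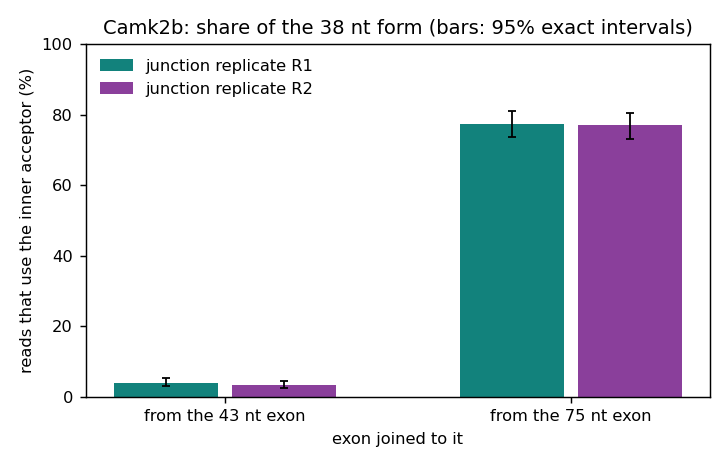
Share (%) of Camk2b junction reads that used the inner of 2 acceptor sites, 3 bases apart, by the exon joined upstream, for each junction replicate with exact 95% intervals. The share was 3.96% and 3.36% from the 43-nt exon and 77.4% and 77.0% from the 75-nt exon.

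Reads leaving the later exons were divided as follows. After its 38-nt exon, 44.8% and 49.4% of Camk2d reads went to the 60-nt exon, 36.4% and 41.3% to the 42-nt exon, and 18.8% and 9.31% passed over both to the 49-nt exon. Once the 60-nt exon was included, 95.7% and 97.3% of reads went on to the 42-nt exon. In Camk2g, 69.8% and 70.0% of reads left the 44-nt exon for the 33-nt exon, 5.03% and 4.89% for the 69-nt exon, and 25.2% and 25.1% for the 45-nt exon. After the 33-nt exon, 94.9% and 96.1% of Camk2g reads went straight to the 45-nt exon. In both genes a single next exon thus took most reads after the earlier exon was included.

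The deposited transcript estimates gave another account of these exons. In TPM, Camk2b-209, which carries the 75-, 38-, 72-, 45- and 49-nt exons, took 58.8% ± 0.113 of its gene (SD, n = 2), and Camk2b-201, with the 41-, 72- and 49-nt exons, 17.4% ± 0.508. Summed over transcripts, the Camk2b 75-nt exon was in 67.3% ± 0.393 of TPM, against 31.4% ± 1.58 by junction reads. In shares of estimated fragments it was in 82.2%, with Camk2b-209 at 73.0% and Camk2b-201 at 9.47%. The models also differ outside the linker: Camk2b-209 is 4023 nt long and Camk2b-201 1872 nt. The part of length in these shares was not tested. The 3 Camk2g transcripts in the tables were Camk2g-203 at 75.2% ± 4.84, Camk2g-201 at 15.1% ± 3.70 and Camk2g-202 at 9.70% ± 1.14. The Camk2g 33-nt exon was thereby in 15.1% ± 3.70 of TPM, against 73.0% ± 0.9005 by junction reads, and in 15.4% of estimated fragments. None of these 3 transcripts joins the 33-nt exon to the 45-nt exon, a junction with 520 and 793 reads, and none holds the 63-nt or the 114-nt exon.

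The measures also differed for Camk2a and Camk2d. Camk2a-203, which lacks the 33-nt exon, took 89.3% ± 0.842 of Camk2a, and the exon was in 9.23% ± 0.911 of TPM and 5.68% of estimated fragments, against 20.9% ± 1.86 by junctions. For Camk2d, Camk2d-206 with the 38-, 60- and 42-nt exons took 36.6% ± 4.62 of TPM and Camk2d-202 without the 60-nt exon 16.1% ± 0.0129. The Camk2d 42-nt exon was in 54.0% ± 3.72 of TPM against 85.2% ± 6.35 by junctions, and the 33-nt exon in 10.8% ± 0.796 against 0.380% ± 0.310. These Camk2d values depend on the unit: in shares of estimated fragments the 42-nt exon was in 85.7% and the 33-nt exon in 1.69%, with Camk2d-206 at 59.2% and Camk2d-202 at 25.7%. The exons of a transcript were read from GENCODE M21, while the authors used M4, and the lengths of 9 or 10 Camk2d and 2 Camk2g transcripts differ between those releases. The other 5 genes each had 1 transcript above 97%: Calm2-201 at 97.7%, Calm3-201 at 99.7%, Nrgn-201 at 99.6%, and Camk4-201 and Pcp4-201 as the only ones in the tables.

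**Figure D5:**
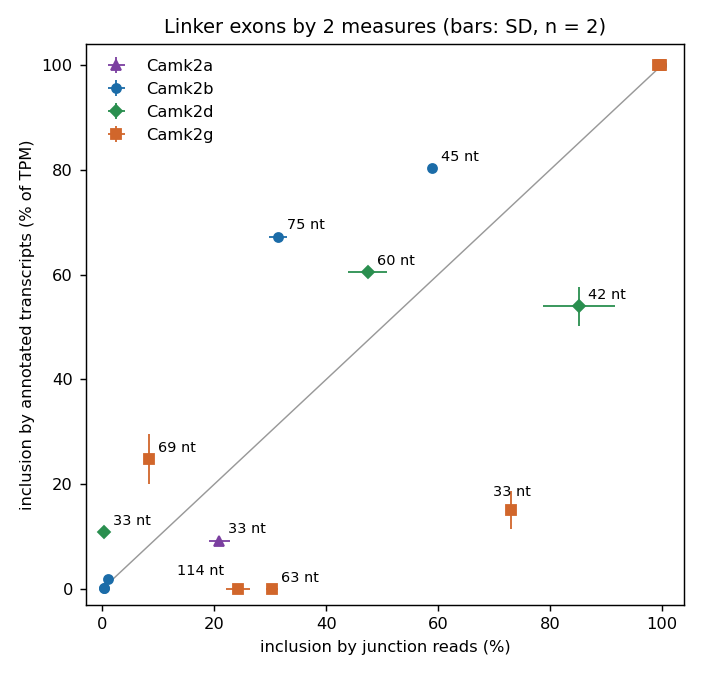
Inclusion of each linker exon by junction reads (x axis, %) and by the TPM of annotated transcripts (y axis, %), as means with SD over n = 2; the line marks equal values, and the Camk2b 38- and 41-nt and Camk2d 35- and 38-nt exons are left out because each pair shares a junction. The Camk2g 33-nt exon lies farthest below the line (73.0% and 15.1%) and the Camk2b 75-nt exon farthest above it (31.4% and 67.3%).

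Outside the linkers, 38 cassette exons of the Camk2 genes could be measured, and 3 lay between 5% and 95%, all in Camk2d. A pair of 73-nt exons were at 93.3% and 93.2% for the first and 10.6% and 10.6% for the second. The second had 38 and 44 upstream reads, more than the 20 and 28 reads that skipped the first. The pair is thus not shown to be used as alternatives. A Camk2d exon of 89 nt, which is not a multiple of 3, was included in 20.9% and 18.4%. In Camk4, a 79-nt exon was at 90.2% and 93.2%, and the other 5 exons tested were above 95%. All 5 exons tested of Calm2, 4 of Calm3, 2 of Nrgn and 1 of Pcp4 were above 95%. Of all 46081 annotated cassette exons tested, 10829 lay at 5% to 95%.

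The genes around these 9 in the calcium and calmodulin pathway were mostly detected: in 8 lists, 86 of the 90 genes other than the 9 were at 1 TPM or more in both libraries, beside 14816 of all 43346 genes. Among other CaM kinases 10 of 11 were detected, highest for Camkv at 234.24 and 200.38 TPM, a kinase-like protein of vesicles, then Pnck and Dclk1, and lowest for Dapk2 at 0.70 and 1.5. All 9 inhibitors and anchors of CaM kinase II were detected. Camk2n2, which encodes an inhibitor of the kinase, was at 110.67 and 92.97 TPM, Ppp1cc, a phosphatase subunit, at 238.62 and 234.02, and the scaffold gene Actn4 at 88.00 and 76.63, while the scaffold gene Lrrc7 was lowest at 6.26 and 5.75. The phosphatase calcineurin, also driven by calmodulin, had 9 of 10 genes detected, led by Ppp3cb, Ppp3r1 and Ppp3ca at means of 123, 122 and 100.5 TPM. Its testis-type subunit gene Ppp3r2 was at 0.26 and 0.27 TPM.

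Of 15 calmodulin-binding proteins in the list with Nrgn and Pcp4, all were detected, and 3 had means above both. Gap43, a growth cone protein with an IQ motif, was at 1381.47 and 1281.83 TPM, close to Calm2; Marcksl1 was at 1272.05 and 1097.78 and Marcks at 232.54 and 213.40. The Marcks genes and the adducin genes Add1 and Add2 of that list bind calmodulin without an IQ motif. Iqgap2 was lowest at 2.81 and 3.26 TPM. All 15 enzymes and channels were detected, with the phosphodiesterase Pde1b (60.72 and 61.24 TPM), the adenylyl cyclase Adcy1 and the calcium pump Atp2b1 highest and the calcium channel Ryr2 (5.18 and 6.06) lowest. Other calcium sensors were led by Hpca, Ncald and Hpcal1 at means of 112.8, 103.1 and 86.1 TPM, and Pvalb was lowest at 0.78 and 2.66. Of the calmodulin genes, Calml3 was the 1 not detected, at 0.03 and 0.01 TPM.

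Between the libraries, 4 of the 89 other genes measured in these lists were past 2-fold (4.49%, beside 3.58% of all genes measured), all higher in replicate 2: Dapk2, Actn2, Pvalb and S100b. Actn2 and Pvalb are also expressed in skeletal muscle, and the part of muscle RNA in these 4 ratios was not tested. With any of the 9 genes counted in their lists, 11 of 15 in the list with Nrgn and Pcp4 were lower in replicate 2. So were 7 of 11 other CaM kinases, 6 of 9 inhibitors and anchors and 5 of 10 calcineurin genes. Of enzymes and channels 7 of 15 were lower, of other calcium sensors 6 of 15, and of calmodulin genes 1 of 4 measured. The list of transcription factors and their regulators downstream of calcium had 11 of 14 lower, beside 49.5% of all genes measured. The list had a median log2 ratio of -0.16, beside 0.002 over all genes. Its most abundant gene, the histone deacetylase gene Hdac5, a target of CaM kinases, was at 105.83 and 73.04 TPM, and Mef2c at 73.31 and 54.04. Camta1 was at 67.36 and 68.00, and Bdnf was lowest at 2.03 and 2.89. The forebrain neuron markers named above moved in the same direction as this list, and 1 of its genes, Neurod2, is among them. The part of these markers in the ratios of the list was not tested.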

How the data were processed

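Poly-A+ RNA of 2 libraries of 1 group was measured; replicate numbers come from the labels. Per the deposited read-me text, the gene and transcript tables use mm10 and GENCODE M4; they hold the authors' expected counts, TPM and FPKM. On mm9 with Ensembl 65, the authors deposited RPKM per gene, exon positions and counts of reads per splice junction for both replicates. The sources used here name neither aligner nor quantifier (not given). Per the file headers, the deposited transcript tables also hold each transcript's percent of its gene, from which the TPM shares computed here differed by at most 0.028 points. Expected counts were rounded and scaled by TMM in edgeR 4.0.16 (R 4.3.3) with a prior count of 1, after its filter on low counts; DESeq2 1.42.0 size factors were an alternative. Ratios between genes used log2(TPM + 1). Cassette exons needed 20 junction reads in each replicate; tests used SciPy 1.17.1 and statsmodels 0.14.6 and were tested on simulated data. A call across 2 libraries has no other replicate check. A limit of 3 counts equals 0.0319 and 0.0219 CPM, far under every one of the 9 genes.

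Exons of mm9 were matched to GRCm38 (the mm10 build) by the lengths of exons and flanking introns, with no conversion of coordinates; the Camk2d 33-nt exon was matched as the only exon of its length between matched neighbours. Sequences come from GENCODE M21. Named were all 9 genes and every linker cassette exon with enough reads. Also named were transcripts with 10% or more of a gene's TPM in either library, and of each pathway list the 3 highest and the lowest. Other exons were named at 5% to 95%. Genes, lists and tests were chosen with earlier results of these data known. Chosen after the junctions had been examined were the linker's bounds, the definition of a cassette exon (an internal annotated exon that junction reads span in both replicates), the 2 Camk2g exons outside Ensembl 65, the acceptor shares, the comparison with transcripts in TPM and in estimated fragments, the junction reads of marker genes, the pairs Pcp4 and Nrgn, Camk2b and Camk2a, and Camk2a and Camk4, the motif pattern and the sequence comparisons, and the single features described in the closing section. A gene of 1 pathway list is not reported here.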

Additional observations from a re-analysis of the deposited data

How the results depend on the processing

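The summary results are counts, of which 30 under the alternatives stayed within 1.5 times the main count and 3 moved. A count can stay so while single pairs within it turn. Of single values 235 held, 47 moved and 4 reversed. In CPM with no length correction, only 2 of the 4 ratios within families were above 0, against 4; the log2 ratio of Camk2d to Camk2g became -0.17, of Calm2 to Calm3 -0.21 and of Pcp4 to Nrgn -0.38. In mm9 RPKM the ratio of Camk2d to Camk2g was -0.11. With junctions to the nearest exon only, 2 linker exons lay at 5% to 95% against 7, because exons reached by single reads then count as nearest; with nearest junctions of at least 10 reads, an alternative chosen after seeing the data, there were 6. With the upstream junction alone, 1 exon of the 9 genes was called against 0, the Camk2d 42-nt exon. With no filter on low counts, 8.82% of all genes were past 2-fold against 3.58%. As shares of expected counts, 12 transcripts held 10% of their gene against 14. Of 36 gene pairs, CPM kept 25 and mm9 RPKM 34 in order; leaving out 1 library kept 35 to 36 and gave 13 to 14 such transcripts, 7 linker exons in each case and 4 ratios above 0. No paired analysis was possible because there is 1 group. Junction replicates carry no library name and were not matched to libraries by their values, so splicing was set beside the muscle junction reads of the same replicate only, and the Camk2d exons rest on fewer reads than those of Camk2b.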

Other observations

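A few features of the Camk2 genes lie outside the comparisons above and were picked after their values were seen. The Camk2b 72-nt exon had a further donor site, outside Ensembl 65, 54 bases into the intron, which would make an exon of 126 nt. It took 81 reads beside 1765 at the annotated donor in junction replicate 1, or 4.39% (exact 95% interval 3.50 to 5.42), and 99 beside 2273 in replicate 2, or 4.17% (3.40 to 5.06).

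Camk2a has an internal promoter that is known to give a short transcript in skeletal muscle, which encodes an anchoring protein without the kinase domain. The short models Camk2a-202 and Camk2a-204 were at 0.44 and 0.09 TPM in replicate 1 and at 0.40 and 0.48 TPM in replicate 2. Camk2a-204, which carries the 33-nt exon, had 4.05 and 34.16 estimated fragments, of 9672 and 10969 for the gene. Skeletal muscle markers summed to 14.98 and 649 TPM in the same libraries, and their part in this difference was not tested.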
